A study of Mus musculus with 12 samples.

Results

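The livers described here are 4 in which REV-ERBalpha was expressed again and 4 labelled as a double knockout of the REV-ERB genes (DKO), from mice. The comparison covered each gene with a mean of at least 1 TPM over these 8 livers, which gave 17841 of the 48537 genes in the table. TPM (transcripts per 1000000) is the RNA level of a gene per length of transcript, with every library brought to 1 common total. The gene just inside this limit had a mean of 1.0001 TPM and the gene just outside it 0.999262 TPM. Livers were taken at ZT10, 10 h into the light phase, and the series also held 4 control livers labelled wildtype, for 12 in all. Sample titles give YFP for the control livers, DKO with YFP for the knockout livers and, for the re-expression livers, DKO with REV-ERBalpha-WT. Table columns name the knockout group YFP_Cre and the re-expression group YFP_WT. Both groups compared thus carry the DKO label. The sources used here do not give the deleted part of either gene, the cells it was deleted in, how YFP, Cre or REV-ERBalpha reached the liver, or the strain, sex and age of the mice. Effects of the added proteins other than REV-ERBalpha, or of their carrier, cannot be told apart from its own by these groups.

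The REV-ERB receptors are the products of Nr1d1 (REV-ERBalpha) and Nr1d2 (REV-ERBbeta). They lack the helix by which other nuclear receptors recruit coactivators and so repress the genes they bind. Their sites are ROR elements, an A/T-rich stretch followed by a nuclear receptor half-site, where they bring in the NCoR corepressor with histone deacetylase 3. In liver they keep Arntl, which encodes BMAL1, low during the day, and they are known for control of lipid metabolism.

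The 8 libraries held 5832712 to 6906221 recovered reads each. The number of genes with a read was 22781.5 ± 101 in re-expression and 22533 ± 115 in DKO livers (SD, n = 4), the smallest p of 14 library measures under an exact two-sided permutation test (p = 0.0286, which is the least that 4 against 4 can give, and 0.4 after Benjamini-Hochberg adjustment). Hepatocyte markers were high in all 8 livers. Re-expression replicate 1 stood apart in markers of Kupffer cells, the macrophages of the liver: Marco was at 231 TPM there against 12.4 to 34.1 TPM in the other 3 re-expression livers, and Adgre1 at 125 against 17.1 to 27.1 TPM. Clec4f, a lectin gene of resident Kupffer cells, was at 41.7 against 92.4 to 98.7 TPM. In bulk tissue, fewer cells of a type and less RNA per cell cannot be told apart. The summed level of 11 Kupffer cell markers ran from 471 to 1148 TPM in re-expression and 552 to 605 TPM in DKO livers. The calls, and the list counts and medians that move most, are therefore also given without this liver.

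Nr1d1 (chromosome 11, 98767932 to 98775333, minus strand, build mm10) measured 78.7, 84.7, 91.7 and 74.8 TPM in DKO livers and 171, 203, 174 and 217 TPM in re-expression livers. Each re-expression liver stood above each DKO liver, 2.32-fold in the mean, a difference of 1.20 ± 0.10 on the log2(TPM + 1) scale (SE, limma adjusted p = 0.000446; exact two-sided permutation p = 0.0286 over 70 assignments). Control livers held 68.7 ± 5.53 TPM (SD, n = 4) and DKO livers 82.5 ± 7.39 TPM, with a difference of 0.26 between them (adjusted p = 0.173). The RNA of the targeted gene was thus not lower in the livers labelled DKO. Nr1d2 (chromosome 14, 18204054 to 18239127, minus strand) stood at 96.6 ± 14.9 TPM in control, 90.4 ± 7.91 in DKO and 97.7 ± 15.2 in re-expression livers, a difference of 0.10 ± 0.13 between the last pair (SE, adjusted p = 1). A level over the whole gene includes reads from parts that were not deleted, so neither gene checks the deletion, and DKO below means that label alone. Nr1d1 overlaps Thra, a thyroid hormone receptor gene on the opposite strand, which was at 9.62 ± 0.871 TPM in DKO and 10.2 ± 1.07 TPM in re-expression livers.

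Few genes passed the test. At a Benjamini-Hochberg adjusted p under 0.05, limma called 5 genes higher and 9 lower in re-expression livers, which is 0.028% and 0.0504% of the tested genes and 0.0785% together. All 14 had groups that did not overlap, and 11 carry a gene name. The other 3, 1 higher and 2 lower, are unnamed gene models and are counted only. Calls were 2 of 4513 genes under 10 reads per library (0.0443%) and 12 of 13328 others (0.09%). Groups did not overlap in 757 genes, or 4.24% of all tested, with re-expression above in 368 (2.06%) and below in 389 (2.18%). Unadjusted p was under 0.05 in 1109 genes (6.22%), 503 of them higher (2.82%) and 606 lower (3.4%). Over all tested genes the median log2 difference was 0.01, and 9495 had a higher and 8346 a lower mean in re-expression livers.

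Quantile normalization moved the split of calls to 7 higher and 8 lower. Without re-expression replicate 1 there were 3 higher and 9 lower calls, and 8 of the 14 calls were kept. With 3 livers in a group separation is easier to reach: without this liver re-expression lay wholly above DKO livers in 732 genes (4.1%) and wholly below in 926 (5.19%). Counts of separated list members are to be read against these shares, or against 2.06% and 2.18% with all livers. Without DKO replicate 1, 2, 3 or 4 there were 3, 1, 2 and 3 higher calls, and without re-expression replicate 3 or 4 there was 1 each, and DKO replicate 2 also took the lower calls to 5. For scale, the same fit called 540 genes higher (3.03%) and 409 lower (2.29%) in DKO than in control livers, 949 in all (5.32%). Between re-expression and control livers it called 211 higher (1.18%) and 116 lower (0.65%), 327 in all (1.83%). These comparisons share livers with the one described, so their values are set side by side below and support nothing.

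**Figure D1:**
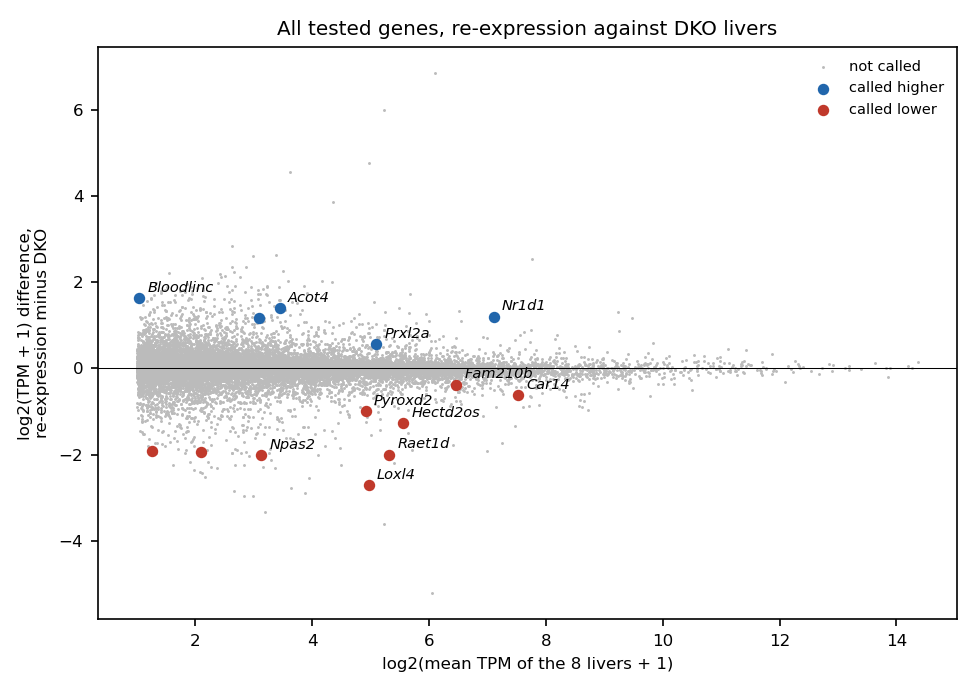
Difference of mean log2(TPM + 1) between re-expression and DKO livers (vertical axis, log2 units) against the mean level over the 8 livers (horizontal axis, log2 units), 1 point per tested gene. Coloured points are the 5 genes called higher and the 9 called lower. Differences over all tested genes ran from -5.21 to 6.85 around a median of 0.01. Called genes such as Fam210b (-0.37) lie within that range.

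Clock genes with ROR elements, the kind of site that REV-ERB receptors bind, had lower means in 5 of 6 cases. Their median log2 difference was -0.37, against 0.01 over all genes. The gene called was Npas2, and in 4 of the class, Npas2 included, re-expression livers lay wholly below DKO livers. Without re-expression replicate 1 the median was -0.39, with 4 of 6 wholly below, where the share over all genes was 5.19% in place of 2.18%. The region of the Arntl start carries a pair of ROR element cores and that of Nfil3 carries 1. They are printed because these genes are textbook targets of REV-ERB, from RefSeq on GRCm38.p6, 5′ to 3′, with the core in capitals. The stretches lie at chr7:113207494-113207523 and chr7:113207530-113207559 for Arntl and at chr13:52981033-52981062 for Nfil3, all read on the plus strand; Nfil3 itself is transcribed from the minus strand.
Arntl site 1: tggtcggaaagTAGGTTAgtggtgcgacat
Arntl site 2: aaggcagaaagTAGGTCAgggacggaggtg
Nfil3 site: gatgtgtgttagTAGGTCAgttccgagcgc
On either strand, TAGGTCA was found in 2.61% and TAGGTTA in 1.44% of 32851 RefSeq windows of 300 bases (250 before to 50 after a start). The other motifs searched were AGGTCA, its direct repeat with a spacer of 2 bases, the E-box CACGTG and the D-box TTATGTAA, found in 16.3%, 0.00913%, 7.15% and 0.938% of windows. The windows of Cry1 and Clock held neither ROR core; that of Cry1 held an E-box, and 1 of 3 Clock windows the half-site AGGTCA. A match describes letters and not a bound site, and its absence covers this window alone.

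Npas2 (chromosome 1, 39193731 to 39363236, plus strand), the gene of a BMAL1 partner that can stand in for CLOCK, measured 11.6, 15.1, 10.5 and 14.8 TPM in DKO livers and 2.15, 2.86, 1.79 and 3.11 TPM in re-expression livers. The lowest DKO liver was far above the highest re-expression liver, and Npas2 fell by 2.01 ± 0.17 on the log2 scale (SE, adjusted p = 0.00062), 5.25-fold in mean TPM. Control livers were at 0.0713 ± 0.0943 TPM, 1.69 below the re-expression livers on that scale (adjusted p = 0.000465). With a pseudocount of 0.1 the call was lost (adjusted p = 0.0559, and 3.05e-05 to 0.0559 over the alternatives). Npas2 overlaps unnamed pseudogene models. None of the 6 motifs was found in its RefSeq window. The RefSeq start lies inside the gene as GENCODE bounds it, since GENCODE starts the gene further upstream. The first 190 bases of the window, which no GENCODE exon covers, are shown for the most changed clock gene (chr1:39194022-39194211, plus strand).
Npas2 promoter: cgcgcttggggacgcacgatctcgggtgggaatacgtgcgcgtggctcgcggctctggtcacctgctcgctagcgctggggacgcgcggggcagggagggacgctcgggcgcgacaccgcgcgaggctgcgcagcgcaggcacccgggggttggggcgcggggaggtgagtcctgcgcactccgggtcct

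Arntl itself (chromosome 7, 113207465 to 113314126, plus strand) was not called. Its levels were 19.5, 21.4, 18.3 and 20.1 TPM in DKO livers and 15.6, 16, 15.2 and 13.5 TPM in re-expression livers. The groups did not overlap, with a difference of -0.38 ± 0.11 (SE, adjusted p = 0.392). Control livers held 0.728 ± 0.205 TPM, so Arntl was 3.22 higher in re-expression than in control livers (adjusted p = 2.67e-08). Arntl overlaps an unnamed antisense model. Cry1 (chromosome 10, 85131700 to 85185064, minus strand), a repressor of BMAL1 and CLOCK, measured 64.5, 54.7, 42.6 and 52.7 TPM in DKO livers and 32.8, 30.6, 33.7 and 31 TPM in re-expression livers. All 4 re-expression livers were lower, but the difference of -0.71 ± 0.13 did not pass (SE, adjusted p = 0.11, 0.0094 to 0.254 over the alternatives). It passed with sample quality weights (0.0332) and with voom on the recovered reads (0.0094). Control livers were at 8.95 ± 1.57 TPM.

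Nfil3 (chromosome 13, 52967209 to 52981073, minus strand), a repressor that acts on D-boxes, read 134, 119, 134 and 125 TPM in DKO livers. In re-expression livers it read 103, 96.4, 102 and 95.6 TPM, all lower, with a difference of -0.37 ± 0.09 (SE, adjusted p = 0.257) and control livers at 26.9 ± 3.55 TPM. Clock, the gene of the main partner of BMAL1, was at 29.1 ± 2.87 TPM in DKO and 27.7 ± 1.65 TPM in re-expression livers. Its groups overlapped, and the control livers held 13.5 ± 3.01 TPM.

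**Figure D2:**
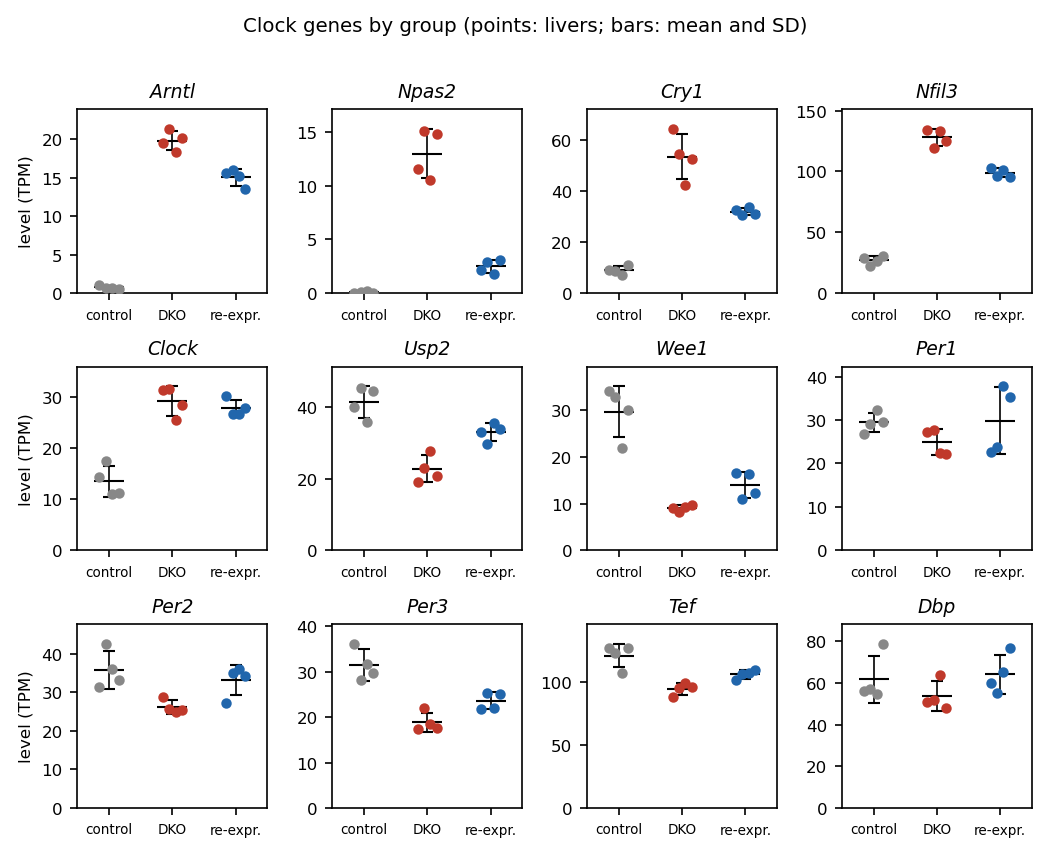
RNA level (TPM, vertical axis from 0) of 12 clock genes in control, DKO and re-expression livers, with 1 point per liver and bars for mean and SD of 4. Arntl, Npas2, Cry1 and Nfil3 show re-expression livers below DKO livers and above control livers, while Usp2, Wee1 and Tef show them above the DKO livers.

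Among clock genes with E-boxes or D-boxes, the sites of BMAL1 and of the DBP family, 12 of 14 had higher means in re-expression livers, with a median of 0.24 (0.30 without re-expression replicate 1). None was called by limma, and 5 had an unadjusted p under 0.05. In 3 of them, Usp2, Wee1 and Tef, re-expression livers lay wholly above DKO livers (5 without re-expression replicate 1, where the share over all genes went from 2.06% to 4.1%). Usp2, a deubiquitinase gene with a strong daily rhythm, measured 19.1, 23, 27.8 and 20.9 TPM in DKO livers and 32.9, 29.8, 35.6 and 34 TPM in re-expression livers (difference 0.53 ± 0.12, SE, adjusted p = 0.18). Wee1, whose kinase delays entry into mitosis, measured 9.11, 8.32, 9.34 and 9.75 TPM and then 16.5, 11.1, 16.4 and 12.3 TPM. Its re-expression mean of 14.1 TPM lay between the DKO mean of 9.13 and the control mean of 29.6 TPM. Tef, a D-box activator gene, differed by 0.16 (adjusted p = 0.76).

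In the remaining members of this class the groups overlapped. The period genes, feedback repressors of the clock, had differences of 0.22 for Per1, 0.33 for Per2 and 0.31 for Per3. Dbp, a D-box activator gene that BMAL1 drives directly, was at 53.6 ± 7.05 TPM in DKO and 64.2 ± 9.3 TPM in re-expression livers. Nampt, of the NAD salvage route, was at 32 ± 4.22 and 42.6 ± 8.53 TPM (adjusted p = 0.85). Bhlhe41 and Noct had differences of -0.07 and -0.19, which changed sign when some livers were left out. All 6 NCoR corepressor genes lay between -0.11 and 0.19, with none called and overlap in each.

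Loxl4 (chromosome 19, 42593982 to 42612813, minus strand), a lysyl oxidase gene whose product cross-links collagen, had the largest fall among the named called genes. It stood at 48.5, 60.9, 58.7 and 44.2 TPM in DKO livers and at 4.59, 6.65, 9.08 and 9.4 TPM in re-expression livers. The groups were far apart, and the difference was -2.71 ± 0.20 (SE, adjusted p = 0.000271), 7.14-fold in mean TPM. Control livers held 2.46 ± 0.455 TPM, 1.25 below the re-expression livers on the log2 scale (adjusted p = 0.00741). Of the other lysyl oxidase genes, Loxl2 and Loxl3 were tested, at -0.22 and -0.03 with overlap, and the sign for Loxl3 turned without DKO replicate 4 (0.11). The stretch before the start of Loxl4 is shown because it fell most among the named called genes and none of the 6 motifs was found in its window. It covers the 243 bases outside any annotated exon, chr19:42612814-42613056, minus strand.
Loxl4 promoter: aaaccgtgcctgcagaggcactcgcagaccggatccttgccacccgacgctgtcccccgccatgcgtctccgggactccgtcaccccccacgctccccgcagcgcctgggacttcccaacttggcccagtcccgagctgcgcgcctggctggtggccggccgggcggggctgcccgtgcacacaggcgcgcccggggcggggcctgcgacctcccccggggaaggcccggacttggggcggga

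Pyroxd2 (chromosome 19, 42725858 to 42752775, minus strand), an oxidoreductase gene, lies 113 kb from Loxl4 on the same strand. Its levels were 40.2, 37.4, 41.4 and 37 TPM in DKO livers and 15.7, 19.8, 23 and 18.8 TPM in re-expression livers. The groups did not overlap, and Pyroxd2 fell by 0.99 ± 0.13 on the log2 scale (SE, adjusted p = 0.0188) to 19.3 ± 3.01 TPM, beside 18.4 ± 3.16 TPM in control livers. Without any 1 DKO liver, or without re-expression replicate 2 or 4, the adjusted p was 0.051 to 0.0802 (0.00106 to 0.0802 over the alternatives). With the replicate number as a block the limma adjusted p was 0.0512. An unnamed antisense model that overlaps Pyroxd2 was at 4.79 TPM in DKO and 0.982 TPM in re-expression livers without overlap (adjusted p = 0.481). R3hcc1l, beside Loxl4, differed by -0.20 and Hps1, beside Pyroxd2, by -0.42, both with overlapping groups.

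Raet1d (chromosome 10, 22360552 to 22374139, plus strand) encodes a ligand of NKG2D, the receptor by which natural killer cells recognise stressed cells. It was at 63.1, 89, 53.3 and 45.9 TPM in DKO livers and at 16.2, 15.9, 14.5 and 11.8 TPM in re-expression livers, and fell by 2.0 ± 0.22 on the log2 scale (SE, adjusted p = 0.00336). All re-expression livers were well below the lowest DKO liver. Control livers held 11 ± 2.99 TPM, a difference of 0.41 from re-expression livers (adjusted p = 0.505). Raet1e, annotated across the same stretch on the same strand, read 7.88, 15.4, 9.34 and 5.03 TPM and then 3.72, 4.4, 3.8 and 2.43 TPM (difference -1.11, adjusted p = 0.295). Its groups did not overlap either, and since reads can be shared between the pair, which of them changed is uncertain. H60b, another NKG2D ligand gene, differed by 0.05 with overlap, and its sign turned without DKO replicate 2 (-0.11) and without re-expression replicate 1 (-0.08).

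**Figure D3:**
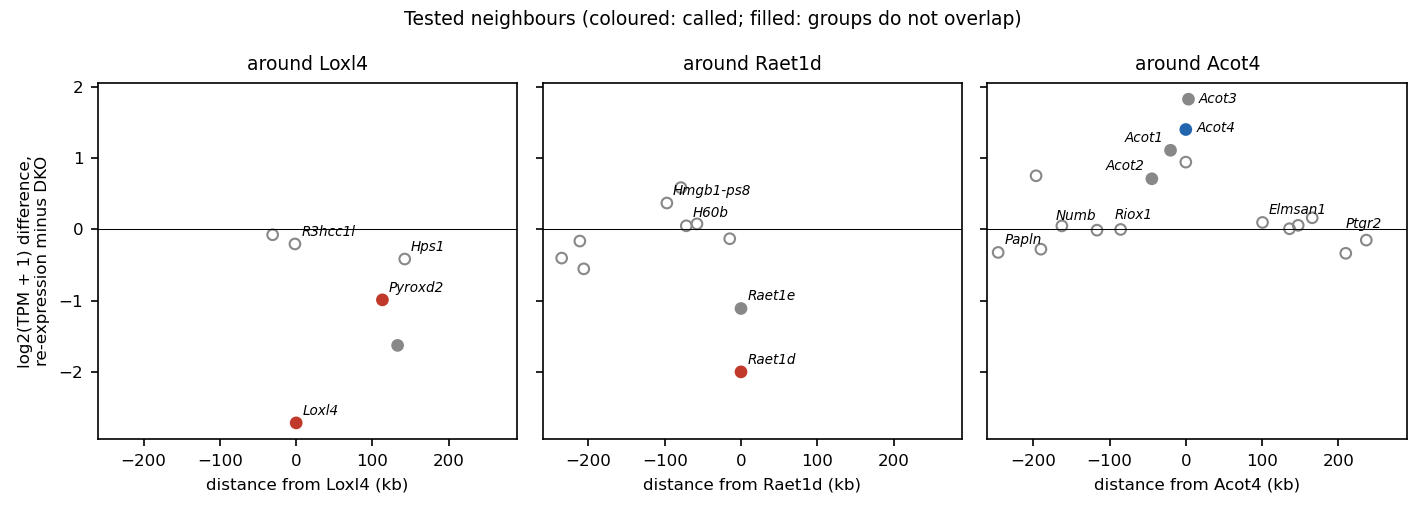
Difference in log2(TPM + 1) between re-expression and DKO livers (vertical axis) for tested genes within 250 kb of Loxl4, Raet1d or Acot4, against distance in kb (horizontal axis; 0 for overlapping genes). Filled points have groups that do not overlap and coloured points are called: Loxl4 and Pyroxd2 in the first panel, Raet1d in the second and Acot4 in the third.

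Car14 (chromosome 3, 95897768 to 95904691, minus strand), a membrane carbonic anhydrase gene, had the highest DKO level of the named called genes. DKO livers held 211, 226, 238 and 214 TPM and re-expression livers 139.5, 161, 138 and 139.8 TPM, against 36.1 ± 3.7 TPM in control livers. Car14 fell by 0.62 ± 0.08 on the log2 scale (SE, adjusted p = 0.0188) and was 1.98 above control in re-expression livers (adjusted p = 1.98e-07). Without any 1 DKO liver or re-expression replicate 1, 3 or 4 the adjusted p was 0.051 to 0.0951 (0.00218 to 0.0951 over the alternatives). Of 7 carbonic anhydrase genes tested it was the 1 called and the 1 without overlap, and Car1 differed by -0.30. Car14 overlaps Aph1a on the opposite strand.

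Hectd2os, an RNA transcribed opposite Hectd2 (chromosome 19, 36614052 to 36705641, minus strand), was at 63.6, 66.9, 67.9 and 62.4 TPM in DKO livers. Re-expression livers held 27.5, 31.1, 22.2 and 25.8 TPM, above the 11.8 ± 4.44 TPM of control livers. It fell by 1.27 ± 0.18 on the log2 scale (SE, adjusted p = 0.0304). The call was lost without any 1 of the 8 livers (0.0528 to 0.112), with no filter on low values (0.0513) and with quantile normalization (0.0582). The replicate number as a block also removed it (0.122), over a range of 0.000255 to 0.122. The sources do not give the strand setting of the counting, so its reads may not have been kept apart from those of Hectd2. Fam210b (chromosome 2, 172345565 to 172355749, plus strand), a gene of a mitochondrial membrane protein, had the smallest fall, from 98.8, 97.3, 102 and 98.1 TPM in DKO livers to 77.4, 73, 78.8 and 75.3 TPM in re-expression livers. Its livers varied little within a group, and it fell by 0.37 ± 0.06 on the log2 scale (SE, adjusted p = 0.045). That call was lost without any 1 of the 8 livers (0.0764 to 0.134), without control replicate 1 (0.0512) or 3 (0.0734) and with a robust prior (0.0542). The replicate number as a block also removed it (0.158), over a range of 0.0144 to 0.158. Control livers held 67.7 ± 3.85 TPM.

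**Figure D4:**
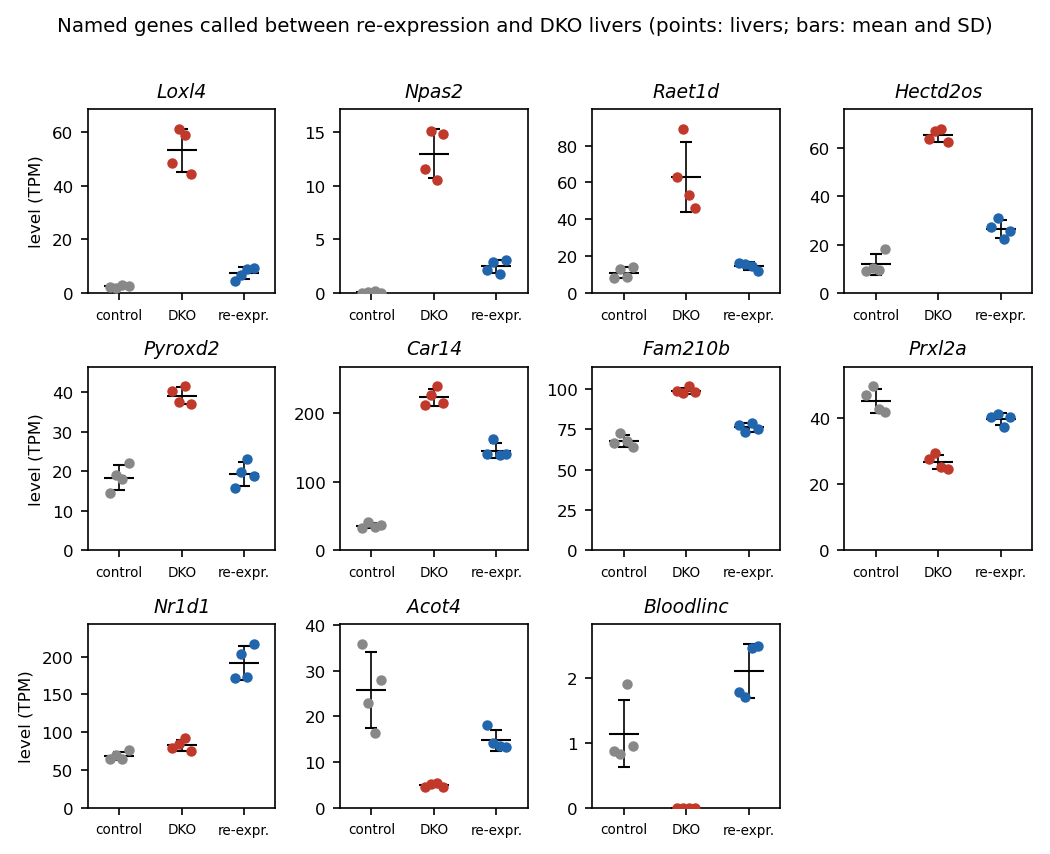
RNA level (TPM, vertical axis from 0) of the 11 named genes called between re-expression and DKO livers, with control livers for reference; 1 point per liver, bars for mean and SD of 4. Apart from Nr1d1 and Bloodlinc, each re-expression mean lies between the DKO and the control mean.

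Genes that rose were fewer. Acot4 (chromosome 12, 84038379 to 84048601, plus strand), a peroxisomal thioesterase gene whose product splits acyl groups from coenzyme A, measured 4.59, 5.12, 5.45 and 4.64 TPM in DKO livers. In re-expression livers it measured 18.1, 14.1, 13.5 and 13.4 TPM, 2.98-fold higher in the mean, beside 25.8 ± 8.23 TPM in control livers. It rose by 1.40 ± 0.19 on the log2 scale (SE, adjusted p = 0.0234). The call was lost without any 1 of the 8 livers (0.0619 to 0.0951) and with a pseudocount of 5 (0.0609). The replicate number as a block also removed it (0.0713), over a range of 0.00345 to 0.0951. Its window held an E-box (CACGTG) and the half-site AGGTCA, the latter printed in capitals as read on the minus strand (chr12:84038354-84038383) because thioesterases of this cluster are known targets of the nuclear receptor PPARalpha.
Acot4 site: cagaccggccaaAGGTCAtgcttcggggct
This half-site is also contained in TAGGTCA.

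Acot4 sits in a cluster of thioesterase genes on chromosome 12. All 4 tested members there had re-expression livers wholly above DKO livers, beside 2.06% of all tested genes. Of these, Acot3 met the limit of 1 TPM through the re-expression livers alone, so it is given as a value and supports nothing. Acot3 measured 0.357, 0.131, 0.135 and 0.138 TPM in DKO livers and 4.9, 4.06, 3.03 and 1.59 TPM in re-expression livers. Its difference of 1.82 ± 0.32 did not pass (SE, adjusted p = 0.0914), but did without control replicate 2 (0.045), with a pseudocount of 0.1 (0.022) and with sample quality weights (0.0296), over a range of 0.022 to 0.302. Acot1, at 3 ± 1.39 and 7.36 ± 2.27 TPM, differed by 1.11 (adjusted p = 0.305). Acot2, a mitochondrial member, differed by 0.71, at 3.36 ± 0.939 and 6 ± 0.191 TPM (adjusted p = 0.327). These genes are close copies, so the counting may have shared or dropped reads among them. Outside the cluster the 6 tested thioesterase genes overlapped between groups, from -0.23 for Acot9 to 0.22 for Acot8.

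Prxl2a (chromosome 14, 40993740 to 41013788, minus strand), a gene of a peroxiredoxin-like redox protein, measured 27.6, 29.2, 25 and 24.6 TPM in DKO livers and 40.2, 41.1, 37.1 and 40.3 TPM in re-expression livers. The groups were separate, with control livers at 45.1 ± 3.63 TPM, and it rose by 0.56 ± 0.08 on the log2 scale (SE, adjusted p = 0.0304). The call was lost without any 1 of the 8 livers (0.0507 to 0.107), over a range of 0.0115 to 0.107. Bloodlinc, a long noncoding RNA gene known from red blood cell precursors (chromosome 11, 102375549 to 102377020, minus strand), was listed at 0 in all 4 DKO livers and at 1.79, 1.71, 2.45 and 2.48 TPM in re-expression livers. It rested on 1.25 reads per library, so no fold is given (adjusted p = 0.0138). With 0 in the DKO livers, Bloodlinc met the limit of 1 TPM through the re-expression livers alone. Its call is therefore given as a value and supports nothing. Its call was lost without DKO replicate 2 (0.0507) or re-expression replicate 3 (0.0572) or 4 (0.0553) and with voom (0.0748). The replicate number as a block also removed it (0.0617), over a range of 0.00368 to 0.0748. Red blood cell markers, of which 5 of 6 were tested, summed to 400.3 to 687 TPM in DKO and 373 to 835 TPM in re-expression livers, and their part in the Bloodlinc result was not tested.

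Of 15 lipid droplet and lipoprotein genes 11 had higher means in re-expression livers, with a median of 0.15, and none was called; Lpl was the 1 separated below. Lpl, the gene of lipoprotein lipase, measured 35.4, 40.8, 61 and 66.9 TPM in DKO livers and 29.5, 15.5, 13.9 and 15.4 TPM in re-expression livers. Re-expression replicate 1 was the high one, and the difference of -1.43 ± 0.24 (SE, adjusted p = 0.0724, 0.0042 to 0.249 over the alternatives) passed without it (0.0111). It also passed with sample quality weights (0.0211) and voom (0.0042), and control livers held 12.3 ± 0.431 TPM. Ppard, the gene of the fatty acid receptor PPARdelta, measured 14.6, 13.9, 13.1 and 12.6 TPM in DKO livers and 3.58, 7.46, 4.55 and 6.95 TPM in re-expression livers, with control livers at 2.56 ± 0.506 TPM. Its groups were separate by a wide gap, with a difference of -1.18 ± 0.19 (SE, adjusted p = 0.0585). Ppard passed with a pseudocount of 5 (0.0245), weights (0.028) and voom (0.00222) and without re-expression replicate 2 (0.0433), over a range of 0.00222 to 0.196. Elovl3, a fatty acid elongase gene with a strong daily rhythm, read 163, 126, 216 and 424 TPM in DKO livers and 72.7, 58.7, 27.4 and 122 TPM in re-expression livers (adjusted p = 0.364).

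Other separated genes with lower levels in re-expression livers included Cyp26b1, which encodes a retinoic acid hydroxylase. It was at 11.2 ± 2.87 TPM in DKO and 3.26 ± 1.1 TPM in re-expression livers, a difference of -1.53. Slc13a2, a transporter gene for dicarboxylates, was at 14.8 ± 3.33 and 5.71 ± 4.17 TPM, and the P450 gene Cyp2c55 at 47.8 ± 11.7 and 21.9 ± 10.6 TPM. Adjusted p values were 0.364, 0.359 and 0.586, so none of these passed. Rpl37-ps1, also separated below, differed by -2.97 but rested on 1.125 reads per library and did not pass (limma adjusted p = 0.398).

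Among separated genes with higher levels in re-expression livers, Lipg, the gene of endothelial lipase, measured 2.31, 2.92, 5.4 and 2.58 TPM in DKO livers and 12, 5.55, 8.25 and 10.6 TPM in re-expression livers (difference 1.23, adjusted p = 0.257). Dio1, the deiodinase gene that activates thyroid hormone, measured 34.2, 40.4, 32.2 and 29.4 TPM and then 62.7, 54, 71.3 and 107 TPM (difference 1.06, adjusted p = 0.173). For both, the re-expression mean lay between those of DKO and control livers, with control livers at 20.1 ± 7.53 TPM of Lipg and 166 ± 47.9 TPM of Dio1. Cyp4a12a, a P450 gene higher in male than female liver, stood at 151 ± 37 and 276 ± 41.8 TPM, and Cyp2c38, another P450 gene, at 21 ± 3.7 and 41.7 ± 4.93 TPM. Cyp2c38 passed without control replicate 1 (adjusted p = 0.0282, with 0.257 for all livers and 0.0282 to 0.527 over the alternatives). Abcc4, an export pump gene, was at 3.46 ± 0.553 and 7.54 ± 1.26 TPM and passed with voom (0.0366, with 0.139 in the fit of TPM values and 0.0366 to 0.317 over the alternatives). Igkv1-135, also separated above, differed by 1.40 but rested on 3 reads per library and did not pass (limma adjusted p = 0.838).

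Genes of fatty acid oxidation and ketogenesis, the pathway that PPARalpha drives, had higher means in re-expression livers in 17 of 21 cases, with a median of 0.20. No member was called, and 5 had re-expression livers wholly above DKO livers, beside 2.06% of all genes. Without re-expression replicate 1 the median was 0.09, with 15 higher, 5 wholly above and 1 wholly below. Ppara measured 147, 167, 164 and 162 TPM in DKO livers and 234, 192, 192 and 222 TPM in re-expression livers (difference 0.38 ± 0.08, SE, adjusted p = 0.123), beside 256 ± 8.5 TPM in control livers. Cpt1a, the gate to mitochondrial oxidation, measured 149.7, 176, 193 and 154 TPM and then 239, 200.1, 249 and 228 TPM (difference 0.45 ± 0.10, SE, adjusted p = 0.172). Both genes had every re-expression liver above every DKO liver. Acaa1b, a peroxisomal thiolase gene, was at 426 ± 85.1 and 784 ± 184 TPM (adjusted p = 0.359).

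Among 23 nuclear receptor genes 19 had a higher mean in re-expression livers, with a median of 0.09 (0.21 without re-expression replicate 1), and none was called. Separated above were 4, beside 2.06% of all genes, and 7 without re-expression replicate 1, beside 4.1%. The 4 included Ppara, Nr1h4, the bile acid receptor FXR (207 ± 5.99 and 243 ± 24.4 TPM), and Nr1i3, the xenobiotic receptor CAR. Nr1i3 measured 65.7, 63.2, 64.2 and 70.3 TPM in DKO livers and 78.8, 80.5, 83.1 and 80.6 TPM in re-expression livers (adjusted p = 0.21), and control livers held 64.8 ± 5.05 TPM. Ppard was the 1 separated below.

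Cholesterol synthesis and uptake genes mostly had higher means in re-expression livers, with overlapping groups. Of 18 tested, 17 had higher means in re-expression livers, with a median of 0.38 (0.46 without re-expression replicate 1). None was called, none was without overlap and 5 had an unadjusted p under 0.05. Without re-expression replicate 1 2 were wholly above and 8 had an unadjusted p under 0.05, with none called. Fdft1, which commits the pathway to sterols, was at 62.5, 42.4, 39.3 and 39.1 TPM in DKO livers and 56.9, 64.9, 57.5 and 63.9 TPM in re-expression livers. Lss, which closes the rings of lanosterol, was at 19.9, 12.5, 11.6 and 11.8 TPM and then 14.6, 22, 18.4 and 19.9 TPM. In both genes replicate 1 was the highest DKO liver. Fatty acid synthesis genes had a median of 0.03, with 8 of 15 higher (10 without re-expression replicate 1). Of the 15, 3 were separated above, beside 2.06% of all genes, and none was called. They included the desaturase genes Fads1 (197 ± 29.2 and 247 ± 6.49 TPM) and Fads2 (252 ± 20.9 and 326 ± 19.1 TPM). For Fads1 the gap was narrow, with DKO replicate 1 at 239.8 TPM and the lowest re-expression liver at 241.3 TPM. Thrsp and Srebf1, regulators of lipogenesis, were at -0.64 and -0.52 with overlapping groups (limma adjusted p = 0.694 and 0.936). Re-expression replicate 1 was the lowest liver for both. Over the alternatives Thrsp ran from -0.8 to -0.373 and Srebf1 from -0.743 to -0.316.

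**Figure D5:**
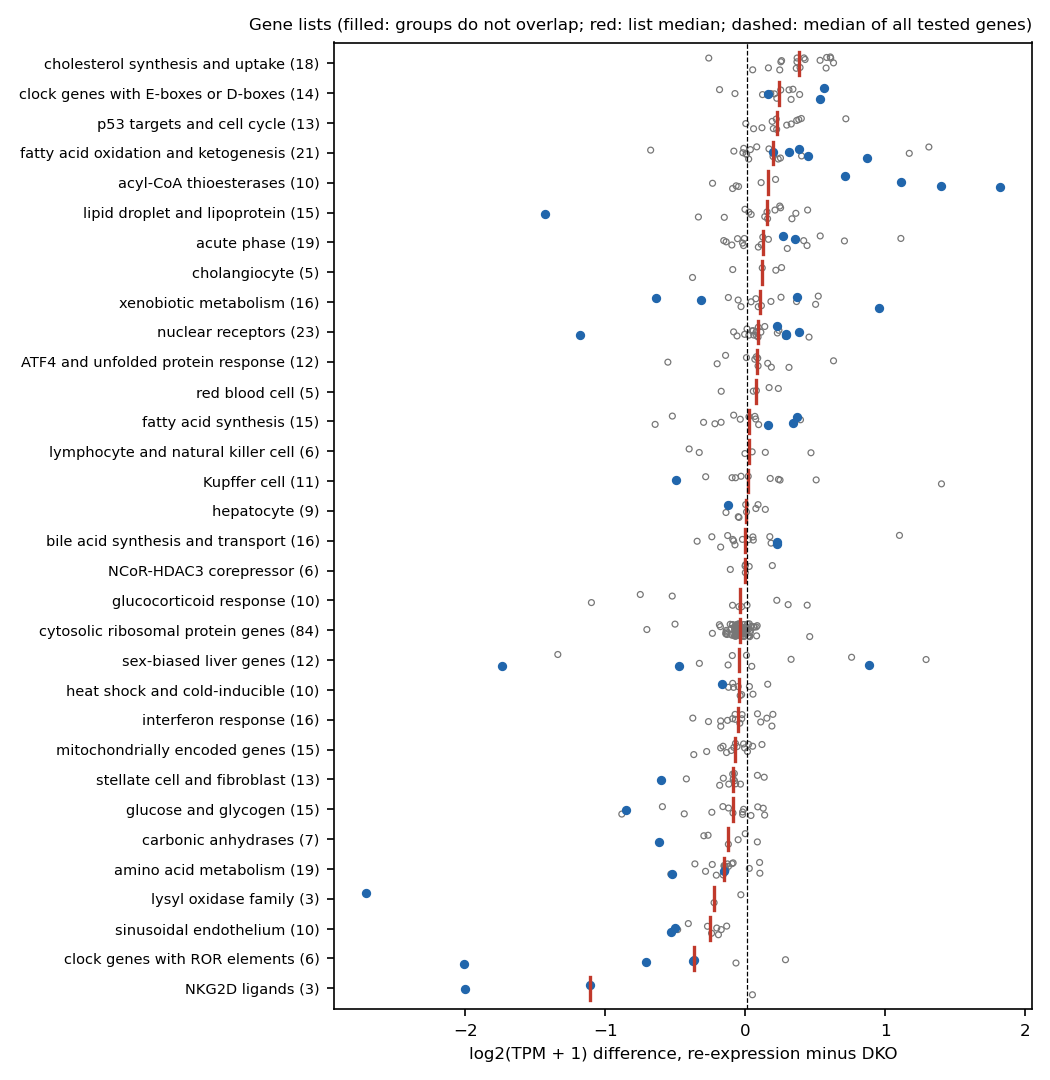
Difference in log2(TPM + 1) between re-expression and DKO livers (horizontal axis) for the tested genes of each list. Filled points have groups that do not overlap, red marks are list medians and the dashed line is the median of all tested genes at 0.01; cholesterol genes lie to the right at a median of 0.38 and clock genes with ROR elements to the left at -0.37.

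In amino acid metabolism 16 of 19 genes had lower means in re-expression livers, with a median of -0.15 (-0.13 without re-expression replicate 1), none called. Got1, the cytosolic aspartate aminotransferase gene, measured 343, 429, 425 and 295 TPM in DKO livers and 265, 265, 237 and 259 TPM in re-expression livers (difference -0.52 ± 0.12, SE, adjusted p = 0.232). All its re-expression livers were below the DKO livers, as were those of the urea cycle gene Otc (334 ± 16.3 and 300.1 ± 16.5 TPM). Of the glucose and glycogen genes 11 of 15 had lower means, with a median of -0.09 (9 lower and -0.04 without re-expression replicate 1). G6pc, which encodes the last enzyme of glucose output, was at 489 ± 159 and 263 ± 76.8 TPM with overlap, and Irs2, an insulin receptor substrate gene, at 29.1 ± 4.53 and 15.8 ± 3.46 TPM without (adjusted p = 0.377 and 0.656).

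Bile acid genes had higher means in 8 of 16 cases. Cyp7a1, which catalyses the first step from cholesterol to bile acids, varied widely, at 11.1, 69.7, 34.4 and 49.5 TPM in DKO livers and 66.9, 60.01, 44.9 and 167 TPM in re-expression livers (adjusted p = 0.833). Its groups overlapped, as did those of Cyp8b1, which directs synthesis to cholic acid (762 ± 125 and 603 ± 136 TPM). Abcc2, an export pump gene of the bile canaliculus, was separated above, at 459 ± 19.1 and 538 ± 56.5 TPM (adjusted p = 0.674). Among 16 xenobiotic genes Ugt1a1 (107 ± 3.05 and 139 ± 18.2 TPM) and Gsta1 were separated above, and Cyp2a5 (4848 ± 319.5 and 3882 ± 263 TPM) and Gstm3 below. None of them passed the test.

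A set of p53 targets and cell cycle genes had higher means in 13 of 13 tested cases, with a median of 0.22, no call and overlap in each (12 higher without re-expression replicate 1). Mdm2, the feedback inhibitor of p53, was at 36.7 ± 4.94 and 47.8 ± 8.21 TPM, and Bax, a cell death gene, at 28.4 ± 5.16 and 37.7 ± 5.98 TPM. Phlda3 and Eda2r, other known p53 targets, were separated above DKO livers. Phlda3 measured 3.4, 6.88, 3.52 and 4.62 TPM in DKO livers and 17.6, 7.25, 18.2 and 14 TPM in re-expression livers (difference 1.41 ± 0.27, SE, adjusted p = 0.11, 0.0155 to 0.35 over the alternatives). It passed without re-expression replicate 2 (0.0155). Control livers held 2.27 ± 0.432 TPM, 2.16 below re-expression livers on the log2 scale (adjusted p = 0.00179). Eda2r was at 3.47 ± 1.18 TPM in DKO, 8.56 ± 2.19 TPM in re-expression and 2.95 ± 1.24 TPM in control livers. Cdkn1a, the gene of the cell cycle inhibitor p21, was at 53.4 ± 4.58 and 62.7 ± 9.5 TPM with overlap and at 2.22 ± 0.507 TPM in control livers.

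Markers of other liver cells were read beside these results. All 10 markers of sinusoidal endothelium had lower means in re-expression livers, with a median of -0.26 (-0.38 without re-expression replicate 1). Their summed levels were 298 to 363 TPM in DKO and 193 to 303 TPM in re-expression livers (exact permutation p = 0.0571, adjusted p = 0.4). None was called, and Clec4g (46.1 ± 4.55 and 32.2 ± 7.49 TPM) and Dnase1l3 were separated below (4 without re-expression replicate 1, beside 5.19% of all genes). Stellate cell and fibroblast markers had lower means in 11 of 13 cases, with a median of -0.09 and summed levels of 451 to 499.6 TPM in DKO and 382 to 464 TPM in re-expression livers. Lrat, the retinoid storage gene of stellate cells, was at 28.7 ± 3.78 and 18.8 ± 3.76 TPM (adjusted p = 0.418). The Kupffer cell median was 0.02, and -0.20 without re-expression replicate 1. No pancreatic acinar marker reached the level limit. The part of cell makeup in the falls of Loxl4 and Raet1d was not tested.

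Further lists other than cell markers had medians between -0.07 and 0.12. Their single members ran from -1.743 to 1.285, both among the 12 sex-biased liver genes tested, of which none was called. Among cell markers, the 2 tested neutrophil genes had a median of 0.20, and the 1 tested adipocyte gene was at -0.207. Acute phase genes had 12 of 19 higher means, a median of 0.12 and no call. Of these, 2 were separated above, beside 2.06% of all genes: Saa4 (260.5 ± 9.13 and 334.5 ± 45.5 TPM) and Serpina3n. None of 16 interferon genes, 10 glucocorticoid response genes, 84 cytosolic ribosomal protein genes and 15 mitochondrially encoded genes was called or had separated groups, with medians of -0.06, -0.04, -0.04 and -0.07. Without re-expression replicate 1, 6 ribosomal protein genes and 1 mitochondrially encoded gene were separated below, beside 5.19% of all genes. In the ATF4 and unfolded protein response list the median was 0.08, with Asns, an ATF4 target, at 4.85 ± 2.35 and 7.43 ± 0.869 TPM and Trib3, another, at 14.6 ± 3.42 and 9.57 ± 1.97 TPM. No gene of either response passed the test.

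The authors' deposited table holds fold changes for 3 numbered comparisons. The second matched the ratio of re-expression to DKO livers, with a median absolute difference of 0.0133 log2 units over 7181 genes of at least 100 reads. At an adjusted p under 0.05 the authors' deposited table calls 35 genes higher (0.241%) and 37 lower (0.254%) of 14539 with a value. Of these 71 were among the genes tested here, and 66 of the 71 had groups that did not overlap, beside 4.24% of all tested genes. Both sets of calls come from the same livers, so neither this count nor the calls they share support the other. Among the 14 genes called by limma, 11 were also called in the authors' deposited table and 2 had no adjusted p there. Genes it calls that limma did not include Lpl (log2 fold change -1.48, adjusted p = 2.12e-09 in the authors' deposited table) and Ppard (-1.27, 7.26e-07). The authors' deposited table also gives Cry1 at -0.76 (0.000861), Arntl at -0.41 (0.0141) and Phlda3 at 1.62 (0.00158). For Nfil3 the authors' deposited table gives -0.38 with an adjusted p of 0.305.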

How the data were processed

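RNA of 12 mouse livers, each given as a biological replicate, was measured by sequencing of total RNA with a stranded kit, per the labels' protocols. The submitters' processing notes name bcl2fastq 2.17, STAR 2.7.1a, SAMtools 1.9, featureCounts 2.0.1, DESeq2 1.36.0 and build mm10, with no role or order, and they do not say how the counting treated strand. The authors deposited 1 table with a TPM value per gene and liver. The same deposited table gives, for 3 numbered comparisons, a log2 fold change, its standard error and a test statistic (both taken as a score, from the column names), a p-value and adjusted p-value, and a mean normalized signal (not used here); which groups each compares was read from the values, and the third matched none.

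Values were taken as log2(TPM + 1), with a pseudocount of 1, for genes with a mean of at least 1 TPM in the 8 livers compared. A model with a mean for each of the 3 groups was fitted to all 12 livers (R 4.3.3, limma 3.58.1, trended prior), so control livers share in the estimate of spread, and p was adjusted by Benjamini-Hochberg over all 17841 genes. Fold changes on this scale understate changes of low genes. A limma p-value sets a difference of group means against the spread between livers of a group, estimated over all 12 livers with the prior. TPM times the transcript length less 199 gave whole reads within 0.01, which served for depth and for voom. Nr1d1 and library measures had exact two-sided permutation tests (scipy 1.17.1, Python 3.11.15). Groups overlap unless each liver of 1 group lies above each of the other. Replicate pairs differed by 4.59 to 15.6 times the sampling noise (chi-square per degree of freedom), so none was counted as 1 sample.

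Positions come from GENCODE M21 and sequences from RefSeq GRCm38.p6; Bloodlinc had no promoter entry. Results that need certain withheld genes are not reported here. Named were Nr1d1 and Nr1d2, all called genes with a name, the 12 largest rises and falls with a mean of at least 5 TPM and groups that did not overlap, all tested members of the REV-ERB, clock, lysyl oxidase, NKG2D ligand, thioesterase and carbonic anhydrase lists, up to 4 genes with the smallest p from each other list, and genes within 250 kb of Loxl4 or Pyroxd2. Pctp, Slc16a5, Zmat3, Cdkn1a and Thra were chosen after their values were seen. The genes and lists were chosen with earlier results of these data known, so no list has a test of its own. Alternatives were other pseudocounts, filters, normalizations and weights, the 8 livers alone, a replicate block, voom and leaving out each liver. The columns of no sample here numbered 0.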

Additional observations from a re-analysis of the deposited data

Results flagged for a closer look

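In 22 of 264 groups of 4 livers checked, 1 liver lay so far from the other 3 that its gap passed the 95% limit of Dixon's test, which chance does in about 1 of 20 groups. Re-expression replicate 1 had most of those in the re-expression group, including Kupffer cell genes. Marco there was at 231 TPM against 12.4 to 34.1 TPM in the other 3, Adgre1 at 125 TPM against 17.1 to 27.1 TPM, and Clec4f, low in place of high, at 41.7 TPM against 92.4 to 98.7 TPM. The same liver was high for Lpl, at 29.5 TPM against 13.9 to 15.5 TPM, and for Acot4, at 18.1 TPM against 13.4 to 14.1 TPM. It was also high for the P450 gene Cyp2c38, at 49.1 TPM against 39.1 to 39.4 TPM, and the export pump gene Abcc2, at 622 TPM against 502 to 515 TPM.

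Other re-expression livers stood apart in single genes. Replicate 2 was high for Car14, at 161 TPM against 138 to 140 TPM, and low for Gstm3, a glutathione transferase gene, at 462 TPM against 713 to 762 TPM. Replicate 3 was high for the acute phase genes Saa2, at 42.3 TPM against 4.6 to 10.9 TPM, and Hp, at 5050 TPM against 2390 to 2670 TPM, and for R3hcc1l, at 9.31 TPM against 7.68 to 7.83 TPM. Replicate 4 was high for Cyp8b1, at 806 TPM against 517 to 555 TPM.

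Among DKO livers, replicate 1 was high for the cholesterol synthesis genes Fdft1, at 62.5 TPM against 39.2 to 42.3 TPM, and Lss, at 19.9 TPM against 11.6 to 12.5 TPM. It was also high for Acot3, at 0.357 TPM against 0.131 to 0.138 TPM, and low for Hps1, at 4.64 TPM against 5.7 to 5.87 TPM. Its neutrophil markers summed to 4.73 TPM against 13.5 to 14.1 TPM. Replicate 3 was low for the glycogen targeting gene Ppp1r3c, at 113 TPM against 251 to 258 TPM, and for R3hcc1l, at 7.99 TPM against 9.97 to 10.2 TPM, and high for the endothelial gene Oit3, at 49.6 TPM against 34.6 to 37.1 TPM. Replicate 4 was high for Loxl3, at 3.56 TPM against 2.02 to 2.18 TPM.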

How the results depend on the processing

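The 5 higher calls became 3 with a pseudocount of 5, 11 with the 8 livers alone, 13 with sample quality weights and 12 with voom on the recovered reads. The 9 lower calls became 25 with weights and 22 with voom. Leaving out 1 liver gave 1 to 7 higher and 5 to 10 lower calls. Genes with re-expression wholly above DKO livers numbered 243 of 11321 at a mean of at least 5 TPM, rather than 368 of 17841, where fewer genes were tested, and 571 to 732 without 1 liver; those below numbered 551 to 926 without 1 liver, where fewer livers per group leave less chance to overlap. For the other changes the cause was not tested.

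With the replicate number as a block there were 3 higher and 6 lower calls. For same-numbered DKO and re-expression livers, deviations from the group mean correlated at -0.0576 to -0.0173 over the tested genes. Pairs with unlike numbers ran from -0.0841 to 0.0882. Control livers were not included, and whether same-numbered livers shared a batch was not tested. The difference of Nr1d1 ran from 1.14 to 1.25 over other pseudocounts, other normalizations and leaving out 1 liver, with an exact permutation p of 0.0286 each time. Of 118 named genes 108 kept their direction in every alternative, and 3 of the 11 named calls (Nr1d1, Loxl4 and Raet1d) were kept in every one. Of 107 genes not called, 9 passed under some alternative. Few reads limit Bloodlinc and Acot3.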

Other observations

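Of the genes outside the lists, Pctp, which encodes a phosphatidylcholine transfer protein, and Slc16a5, a monocarboxylate transporter gene, were picked after their values were seen. Pctp measured 53.7, 55.6, 50.2 and 52.4 TPM in DKO livers and 96, 75.6, 71.9 and 87.8 TPM in re-expression livers, all higher, with a difference of 0.63 ± 0.10 (SE, limma adjusted p = 0.0565). It passed under 6 of the alternatives, among them size factors (0.0396) and quantile normalization (0.0233) and, by 1 control liver, without control replicate 3 (0.0445), over a range of 0.0227 to 0.169. Slc16a5 was at 1.43 ± 0.779 TPM in DKO livers and 8.23 ± 3.89 TPM in re-expression livers (SD), with an adjusted p of 0.0725 (limma, over all genes). Its groups were separate, and it passed with sample quality weights (0.0293) and voom (0.0287), over a range of 0.0287 to 0.183. Zmat3, a p53 target, was at 6.09 ± 0.256 and 8.78 ± 1.25 TPM (SD, 4 livers each) without overlap.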
